A study of Homo sapiens with 8 samples.

Results

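The major histocompatibility complex (MHC) is the stretch of the short arm of chromosome 6 that holds the HLA genes. Its class I genes, such as HLA-B and HLA-C, encode surface proteins that show peptides from inside the cell to cytotoxic T cells. Its class II genes, such as HLA-DRA and HLA-DRB1, encode proteins that show peptides, mainly of proteins taken up from outside, to helper T cells, and they lie beside TAP1, TAP2, PSMB8 and PSMB9, whose products cut peptides and carry them to class I molecules. The class III part between them holds genes of complement (C2, CFB, C4A, C4B), the cytokine gene TNF and the heat shock genes HSPA1A and HSPA1B. In carcinoma cells this stretch matters because class I molecules decide whether T cells can see the tumour, and because interferon raises many of its genes. It is also known as the most variable stretch of the human genome, so that the reference carries several versions of it.

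The stretch was taken as chr6:28500000-33400000 on build hg19, which is 4.9 Mb, and its members were all accessible regions that overlap it. It was divided at 31500000 and 32200000 into a class I part with its extension (3 Mb), a class III part (0.7 Mb) and a class II part (1.2 Mb). Across all lists there was 1 such region, of 80588 in the genome and 4094 on chromosome 6. The stretch makes up 2.87% of the covered span of chromosome 6 and held 0.0244% of its regions. The finding described here is therefore the near absence of peaks, and the values that surround it.

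Accessibility had been measured by ATAC-seq, where the Tn5 transposase cuts open DNA and tags it for sequencing. The groups were KOSC-2 and HSC-3, a pair of established lines of oral squamous cell carcinoma labelled radiosensitive and radioresistant, each given 0 or 8 Gy of radiation and fast frozen after 24 hours. There were 2 libraries for each line and dose, 8 in all, and the labels name no altered gene and no other agent. All cells grew in the same serum medium, and each line is the only one of its kind, so line and radiosensitivity cannot be told apart. Nothing in the labels ties replicates to separate cultures, so spread among libraries may be technical. The p-values of the tests below were fixed by the near absence of peaks and do not measure that spread. Every library has its own list of peaks, the places where the authors' caller found more reads than its background.

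The single member lay in the class II part, at chr6:32525788-32526230, 443 bp wide with its summit at 32526076. It was called in the HSC-3 8 Gy library replicate 1 and in 0 of the other 7 libraries. Calls in a single library made up 31.9% of all regions. This library had the shortest list of all, and its background was the second highest. Its authors' fold enrichment over background was 4.83, below the list's median fold of 6.06, and its −log10 q was 4.32. It ranked at the 5.19th percentile of its list by −log10 p, with 21377 of 22592 peaks stronger. The summit held 10 reads, where 8 was the smallest number called in that library. Its local background, 42.6 reads per 10 kb, equalled the genome-wide level of that library. It was thus a weak peak of 1 library, and the lists give no gene at it.

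The class I part, with the HLA-B and HLA-C genes as background knowledge has it, held 0 peaks in each of the 8 libraries. The class III part, with TNF and the complement genes, also held 0 peaks in each of the 8 libraries. The class II part held 0 peaks in 7 libraries and 1 peak in the other. A count of 0 was taken to allow up to 3 peaks, about an upper 95% Poisson limit, or 0.612 peaks per Mb over the whole stretch. This limit covers counting error only. The contrasts of class III and class II with class I could not be formed, because both sides were at or under that limit.

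The empty stretch had sharp edges. Its lower edge lay further out in every HSC-3 library than in any KOSC-2 library, while the upper edges of the lines overlapped. This difference was not tested. In KOSC-2 the last peak below the stretch ended at 28442482 and 28457963 in the unirradiated libraries (replicates 1 and 2). In the irradiated ones it ended at 28458000 and 28457981. In HSC-3 it ended at 28364873 and 28324227 without irradiation and at 28324218 and 28324293 with it. On the upper side the first peak started in KOSC-2 at 33458206, 33524550, 33458037 and 33507937, in the same order. In HSC-3 it started at 33458041, 33458094, 33524707 and 33458024. From edge to edge the stretch measured 5.0 to 5.20 Mb in single libraries, with the 1 peak above as its only content.

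**Figure D1:**
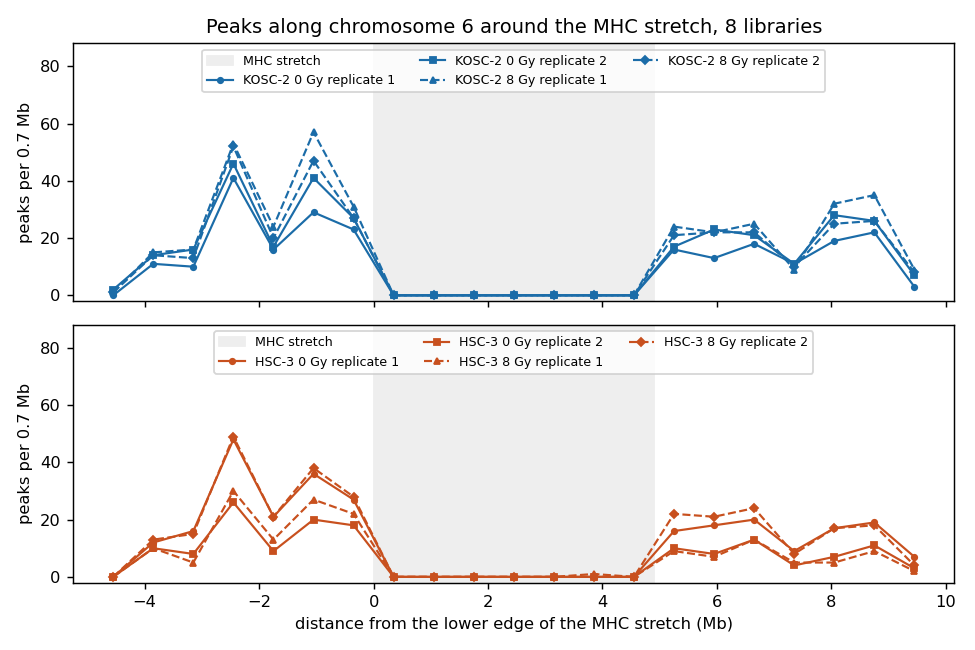
Peaks per 0.7 Mb (vertical axis, count) against distance from the lower edge of the MHC stretch (horizontal axis, Mb), 1 line for each library, KOSC-2 above and HSC-3 below, solid for 0 Gy and dashed for 8 Gy. All 8 libraries drop from 18 to 31 peaks in the last bin below the shaded stretch to 0 in the first bin inside it, and return to 9 to 24 in the first bin above it.

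Peaks were frequent right beside the stretch. The 4.9 Mb below it held 130, 163, 197 and 174 peaks in KOSC-2, given here and below with both unirradiated replicates first and both irradiated ones after them. The same 4.9 Mb held 160, 91, 107 and 164 peaks in the HSC-3 libraries. The 4.9 Mb above it held 102, 133, 156 and 134 peaks in KOSC-2, and 106, 56, 50 and 114 in HSC-3. Every library thus had at least 50 peaks in each flank, against at most 1 in a stretch of the same length between them. The merged lists gave 257 regions in the lower and 220 in the upper flank, of which 82 in all (17.2%) were called in every library, close to the 15.9% over all regions of the genome.

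The regions closest to the edges were called in some libraries only. On the lower side, chr6:28456626-28458000, 42.0 kb outside the stretch, was called in 3 libraries, all KOSC-2, at the 36.4th to 71.8th percentile of their lists. On the upper side, chr6:33458024-33458667, 58.0 kb outside, was called in 5 libraries at the 15.2nd to 39.9th percentile. The closest regions that all 8 libraries called were stronger. On the lower side this was chr6:28303159-28304195, 196 kb outside the stretch. Its authors' fold was 11.1, 8.44, 8.52 and 9.92 in KOSC-2 and 10.1, 7.59, 7.63 and 10.2 in HSC-3, and the summit held 28 to 61 reads, at the 63.9th to 93.3rd percentile. On the upper side it was chr6:33557891-33558936, 158 kb outside. Its fold was 5.29, 8.93, 7.82 and 10.8 in KOSC-2 and 6.90, 5.89, 4.51 and 8.48 in HSC-3, with 30 to 72 reads at the summit, at the 69.1st to 87.7th percentile. Even the library of lowest depth, HSC-3 0 Gy replicate 2, had 28 and 30 reads at these summits, where 5 was its smallest call. Heights are relative to a single library and were not compared between libraries.

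Flank peaks were of middling strength for their lists. The median peak of both flanks together ranked between the 45.7th and 53.4th percentile of its own list over the 8 libraries. The local background under these peaks was 0.974 to 1.33 times the median of the library. The lists hold no background value inside the stretch other than at the 1 peak, so a stretch with few reads and a stretch with no reads cannot be told apart.

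The test was made within each library, since both stretches then share depth and threshold. The rest of chromosome 6 held 11.9 to 15.9 peaks per Mb in the KOSC-2 libraries and 6.96 to 13.6 in the HSC-3 libraries. At that density 4.9 Mb would have held 34.1 to 77.8 peaks. In the 7 libraries without a peak the density of the MHC was at least 12.5-fold to 25.9-fold lower than in the rest of the chromosome, taking 3 peaks per library in place of 0. In the HSC-3 8 Gy library replicate 1, with its 1 peak, the ratio was 0.0293 (95% exact Poisson interval 0.000743 to 0.163, counting error only). With 3 peaks set as the lowest count in each library, the mean log2 ratio was -4.24. It was below 0 in 8 of 8 libraries (exact two-sided sign-flip permutation test, p = 0.00781, the smallest they can give). Every library entered with this same count of 3, against 34.1 to 77.8 at the density of the rest. Each sign, and so the p, was thus fixed by the near absence of peaks and adds nothing to it. With lists of equal length the mean log2 ratio was -3.49 with the same p. Without the 3 libraries of lowest enrichment it was -4.50 with an exact p of 0.0625, the smallest that 5 libraries allow.

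**Figure D2:**
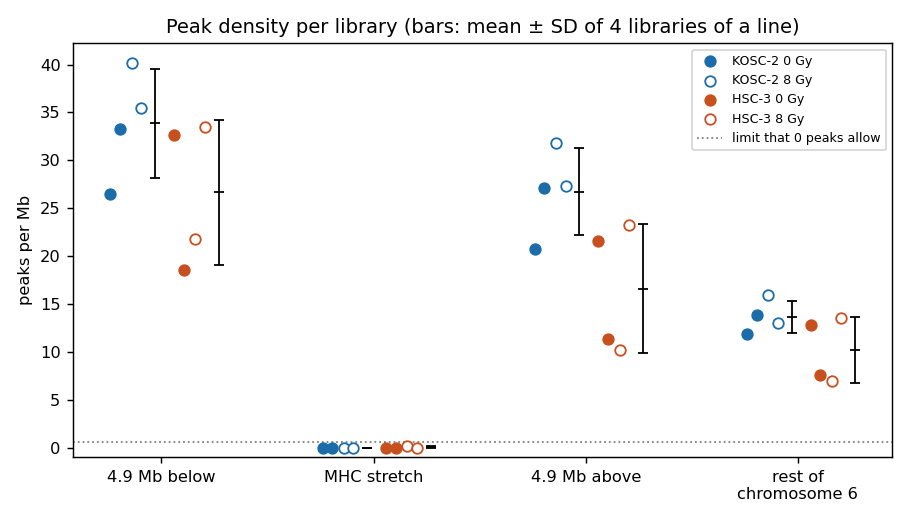
Peaks per Mb (vertical axis) in the 4.9 Mb below the MHC stretch, in the stretch, in the 4.9 Mb above it and in the rest of chromosome 6, with 1 point for each library (filled 0 Gy, open 8 Gy, blue KOSC-2, orange HSC-3) and bars for the mean ± SD of the 4 libraries of a line. The MHC points lie at 0 except HSC-3 8 Gy replicate 1 at 0.204, all under the dotted limit of 0.612, while the flanks lie between 10.2 and 40.2.

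The lines could not be compared within the complex. KOSC-2 libraries had 0% of their peaks there, and HSC-3 libraries averaged 0.00111%, the mean of 0, 0, 0.00444 and 0%. The difference of -0.00111 percentage points comes from 1 peak. The planned exact two-sided permutation test gave p = 1, which 7 values at 0 fix in advance, so it says nothing about the lines. Neither line had a region of its own there: 0 KOSC-2-only regions (called in 4 of 4 libraries of that line and 0 of 4 of the other), where 2.07% of all regions were of this kind, and 0 HSC-3-only regions, where 0.3% were. With 1 member these counts say nothing about the lines. Such regions did occur beside the stretch, where 9 of the 477 flank regions were KOSC-2-only and 0 were HSC-3-only.

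The doses could not be compared either. Unirradiated libraries had 0% of their peaks in the MHC and irradiated ones averaged 0.00111%, from the same peak. The exact permutation test with doses exchanged within each line gave p = 1, again fixed in advance by the values at 0. No region of the complex was gained, that is, called in both irradiated and neither unirradiated library of a line. Over all regions 3.51% were gained in KOSC-2 and 0.68% in HSC-3. None was lost, the reverse pattern, against 0.87% in KOSC-2 and 0.957% in HSC-3. Both counts of 0 were fixed, since the only member was called in 1 library, so they say nothing about the doses. In the flanks KOSC-2 had 30 gained and 1 lost region of 477, and HSC-3 had 8 and 1. The member itself counts as gained in HSC-3 once the HSC-3 8 Gy library replicate 2 is left out, since a single library then meets the rule.

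Long gaps were not rare in these lists, but few had so many regions at both ends. Between regions called in at least 2 libraries there were 175 gaps of 1 Mb or more, and the MHC gap (chr6:28458001-33458023, 5.0 Mb) was the tenth longest. It had 64 regions within 1 Mb below and 33 within 1 Mb above. Of the 9 longer gaps none had more than 29 regions on its emptier side. Only 4 gaps, the MHC included, had at least 33 on both sides. This cutoff is the MHC gap's own count, and the MHC gap was the longest of the 4. Of the 18 gaps with at least 20 regions on both sides, the MHC gap ranked 3 by length. Those on chromosome 9 (32.4 Mb) and chromosome 2 (6.39 Mb) were longer. Gaps over centromeres or unsequenced stretches were not set apart, so these ranks by length may mix unlike kinds of gap. On chromosome 6, windows of 4.9 Mb moved in steps of 0.1 Mb held a median of 107 regions. Of 1658 such windows 8 held at most 1 region, of which 1 lay over the MHC and the other 7 between 57115595 and 62615594, a span that includes the centromere. These ranks are descriptions of the merged lists and carry no test.

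**Figure D3:**
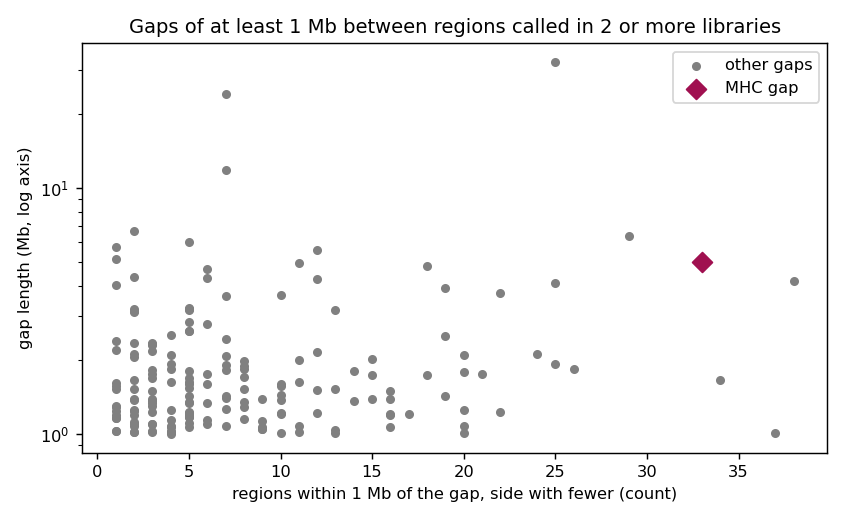
Length of every gap of at least 1 Mb between regions called in 2 or more libraries (vertical axis, Mb, log scale) against the number of such regions within 1 Mb of the gap on the side with fewer (horizontal axis, count), 1 point for each of 175 gaps. The MHC gap (diamond) is at 5.0 Mb and 33 regions, and the gaps that are longer all lie to its left.

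Peaks were also found on other versions of the complex. Build hg19 carries, beside chromosome 6, separate sequences of the MHC from several cell lines, named haplotypes. The lists held 4 peaks on 3 of them, so the reference used for peak calling included these sequences. The KOSC-2 8 Gy library replicate 1 had 1 peak on the QBL haplotype (3092253 to 3092617 of that sequence, authors' fold 7.18, 15 reads at the summit). The KOSC-2 8 Gy library replicate 2 had 1 on the COX haplotype (389114 to 389413, fold 6.94, 11 reads). The HSC-3 8 Gy library replicate 2 had 2 on the SSTO haplotype (1770523 to 1771051 and 2546978 to 2547277, each with fold 5.55 and 8 reads). These were weak to middling peaks, at the 32.2nd, 20.1st and 8.39th percentile of their lists, the last for both SSTO peaks. All had a local background equal to the genome-wide level of their library.

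A read from a segment that is the same in chromosome 6 and in the haplotype sequences fits several places, and aligners give such reads a low mapping quality as a matter of course. How these reads were treated before the peaks were called is not given in the sources used here, and their part in the empty stretch was not tested. Numbering of the peaks ran without a break through each list, so each list is whole from its first to its last number. Apart from the 1 peak in the class II part and the 4 on haplotype sequences, none of which was matched to a gene, the lists hold no accessibility value in the complex, in either line or at either dose. A table of gene names on another assembly (GRCh38.p14) lists 163 protein-coding genes in order from TRIM27 in the class I extension to DAXX at the far end of the class II part, including all 52 listed genes that were looked up for the 3 parts. An absent peak at any of them does not by itself show closed chromatin.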

How the data were processed

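ATAC-seq peak lists of 8 libraries, 2 for each of KOSC-2 and HSC-3 at 0 and 8 Gy, were used as deposited. Build hg19 and the tools MACS2 2.2.6, SAMtools 1.9, Bowtie2 2.3.4.2, deepTools and FastQC 0.11.7 stand in the submitters' processing notes, with no roles or parameters. Filters on mapping quality, treatment of duplicates, the Tn5 shift and any pooling were not given in the sources used here. For each peak the authors deposited a score (10 times the −log10 q without decimals), a ratio (the summit's fold over its own library's background), the −log10 p-value, the −log10 q-value and the offset of the summit. The lowest −log10 q was 2.02 and the narrowest peak 300 bp.

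Peaks on chromosomes 1 to 22 and X were merged wherever they shared at least 1 bp. Reads at the summit and local background were solved from fold and p (pileups 2 to 400, largest misfit in −log10 p 0.000121). Depth, as the genome-wide background, was 20.2 to 64.8 reads per 10 kb, and the smallest pileup called 5 to 9 reads. Backgrounds per 10 kb take each read as 300 bp wide. That width was assumed, and the values change with it. Read totals are not used here. Lists held 22592 to 51764 peaks. The HSC-3 8 Gy library replicate 1, the one with the MHC peak, had the shortest list and the second highest background (42.6).

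Lines and doses were compared by exact permutation tests and stretches by an exact sign-flip test within libraries, with Benjamini-Hochberg adjustment. The member rule and the tests were chosen with earlier results of these data known. The regions to be named were the strongest, widest, line-only, gained and lost ones, the longest gaps and the densest windows. With 1 member this rule left the member and the gap, and edge regions were named after their values were seen. The limma fit on ranks of regions called in all 8 libraries and the test of local background were not run, because the complex held 0 such regions and 1 peak. An item of the gene lists is not reported here. Gene lists and sequences were not matched to regions, since no annotation or genome of hg19 was used here. The alternatives tried were lists of equal length, peaks with −log10 q from 5 upward, each library left out, the 3 libraries of lowest enrichment left out, other denominators, a shorter stretch, a replicate block, calls in 3 of 4 libraries, 50% coverage and merging within 200 bp. Functions were tested on simulated lists. Scripts ran in Python 3.11.15, using scipy 1.17.1, pandas 2.3.3, numpy 2.4.6 and, for plots, matplotlib 3.10.9.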

Additional observations from a re-analysis of the deposited data

Results flagged for a closer look

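Of 14 sets of 4 library values (the 4 libraries of a line), 3 had a value far from the rest. Each of these holds 3 values at 0 and 1 above it, a pattern that is always picked out, so the usual rate of about 1 in 20 by chance does not apply. In HSC-3 the 8 Gy library replicate 1 had 0.00444% of its peaks in the MHC, and the same 0.00444% in the class II part, against 0 in the other 3 libraries, both from the same peak. Also in HSC-3, the 8 Gy library replicate 2 had 2 peaks on haplotype sequences of chromosome 6 and the other 3 libraries 0.

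Peaks on those haplotype sequences lie outside the main measurement and were present in irradiated libraries alone: 1 in the KOSC-2 8 Gy library replicate 1, 1 in the KOSC-2 8 Gy library replicate 2 and 2 in the HSC-3 8 Gy library replicate 2, against 0 in all 4 unirradiated libraries. Together with the MHC peak of the HSC-3 8 Gy library replicate 1, each of the 4 irradiated libraries had at least 1 peak on some version of the complex and 0 of the 4 unirradiated libraries had one. The pattern was noticed in the values and was not tested. The peaks lie on different sequences in the different libraries, and the lists do not show whether any 2 stand for the same place. Backgrounds were 41.0, 24.3, 42.6 and 20.7 reads per 10 kb in the irradiated libraries, KOSC-2 first, and 64.8, 31.4, 27.0 and 20.2 in the unirradiated ones, and the part of depth or list length in the pattern was not tested.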

How the results depend on the processing

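The density contrast with the rest of chromosome 6 (mean log2 ratio -4.24, exact p = 0.00781) was below 0 in all 13 alternatives. In each of them every library entered at the limit of 3 peaks, so the sign was fixed and says nothing about stability. The mean log2 ratio was -3.49 with lists of equal length, where fewer peaks stand against the same limit of 3. It was -3.82 without the first 1.2 Mb of the stretch and -4.15 with −log10 q of at least 5. With the flanks in place of the rest of the chromosome, an alternative chosen after seeing the data, it was -5.35. The exact p was 0.00781 in each of these, and the ratio was -4.34 to -4.17 with exact p of 0.0156 when single libraries were left out. It was -4.50 with an exact p of 0.0625 without the 3 libraries of lowest enrichment, where 5 libraries cannot give a smaller p. The differences in share between lines and between doses rest on 1 peak: for the stretch and for its class II part they became 0 without the 3 libraries of lowest enrichment, with −log10 q of at least 5, and when replicate 1 of HSC-3 at 8 Gy was left out. With a replicate block, in which labels were exchanged between libraries of the same number, the difference between the lines was -0.00111 percentage points (exact permutation p = 1, fixed by 7 values at 0). Gained regions in HSC-3 ranged from 0 to 1 when single libraries were left out. The other 9 results were 0 in every setting, which says nothing about stability. Shared numbers were not checked as pairs, since 7 of 8 libraries are at 0. Alternatives for ranks and for local background were not run. Regions with fewer than 5 to 9 reads, depending on the library, were not detectable.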

Other observations

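Build hg19 also carries a separate sequence for a stretch of the long arm of chromosome 17 around MAPT, the gene of the tau protein. The lists held 0 peaks on it. On chromosome 17 a gap of 1.43 Mb without a region called in any library ran from 43371278 to 44804737, with 38 regions called in at least 2 libraries within 1 Mb below it and 19 within 1 Mb above. By length this gap ranked only 95 of the 175 gaps of 1 Mb or more. This place was chosen after its values were seen, it is not known from these data how far the separate sequence reaches, and no test was run.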
